A study of Mus musculus with 6 samples.

Results

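C-type lectin receptor genes of myeloid cells were followed across 3 states of cultured mouse microglia, the resident macrophages of the brain. The set holds 8 genes of the 36528 gene models in the count tables: Clec4e (Mincle), Clec4d (MCL), Clec4n (Dectin-2), Clec5a (MDL-1), Clec7a (Dectin-1), Clec4a1, Clec4a2 and Clec4a3. They were chosen by name, with earlier results of these data known, and all 8 matched a gene model and passed the filter on low counts. Polyadenylated RNA was sequenced from untreated wild-type microglia, from untreated microglia labelled as Loxp and as Cop1 knockout (Cop1 KO below), and from wild-type microglia exposed to lipopolysaccharide (LPS), the bacterial outer-membrane glycolipid that Toll-like receptor 4 detects. Each group held 2 libraries, all from brain-derived microglia in vitro. The labels give no strain, age, LPS dose or LPS duration, and they do not say how the Cop1 deletion was made or whether the 2 libraries of a group came from separate cultures. The p-values therefore measure only the spread between these libraries, which may be technical.

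These receptors sit on the surface of macrophages and bind sugars and glycolipids of fungi, mycobacteria and damaged cells. Mincle, MCL and Dectin-2 signal through the adaptor encoded by Fcer1g, and MDL-1 signals through the adaptors encoded by Tyrobp and Hcst. Dectin-1, the receptor for fungal beta-glucan, carries its own activating motif. All of these activating receptors recruit the kinase SYK, which acts through the CARD9, BCL10 and MALT1 complex on NF-kB. The product of Clec4a2 carries an inhibitory motif that recruits phosphatases. COP1 is a ubiquitin ligase, and the transcription factor C/EBP-beta is among the proteins that it marks for degradation.

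Library totals lay between 20568144 and 22553708 counts. Cop1 itself was at 11.5 to 12.7 CPM (counts relative to the library total, with edgeR's TMM factors) in untreated wild type and at 8.05 to 9.22 CPM in Cop1 KO, a log2 fold change of −0.49 (SE 0.11, edgeR adjusted p = 0.00016). This level does not by itself show the deletion, since the counts cover the whole gene model and reads from a deleted part were not examined. Of the 10 microglia markers, Csf1r stood at 2186 CPM in untreated wild type, whereas Tmem119 and P2ry12 stood at 7.13 and 6.95 CPM. The summed CPM of that list was 5442 to 5457 in untreated wild type, 8483 to 8518 in Cop1 KO and 3536 to 3648 with LPS. The LPS sum hides opposite changes, as 4 of the 10 rose and 6 fell (median −0.47). Csf1r went from 2186 to 935 CPM with LPS and Ptprc from 367 to 774. Markers of other cell types differed between the cultures. The 8 astrocyte markers summed to 585 to 592 CPM in untreated wild type, 33.1 to 37.4 in Cop1 KO and 665 to 679 with LPS. The 6 neuron markers summed to 57.7 to 58.1, 3.42 to 4.41 and 51.7 to 53.2 CPM in the same order. For the 6 oligodendrocyte lineage markers the ranges were 227 to 233, 127 to 129 and 145 to 153 CPM. This sum hides opposite changes in Cop1 KO, where 5 of the 6 fell and 1 rose (median −3.32). Olig1 went from 75.85 to 5.2 CPM and Mbp from 62.7 to 90.8. For the 5 endothelial markers, with Cldn5 at 0 in all libraries and Tek at no more than 1 count, the sums were 49.4 to 49.8, 95.5 to 95.9 and 146 CPM. Most of this was Flt1, at 37.6, 73.2 and 84.8 CPM, and Kdr, at 10.55, 19.3 and 57.0. Cdh5 was at 1.50, 3.19 and 4.11 CPM. For the 5 fibroblast markers the sums were 48.6 to 51.9, 115 to 119 and 53.9 to 54.6 CPM. Neutrophils and monocytes also use these receptors. Of 9 neutrophil markers S100a9, Ly6g, Mpo and Elane were at 0 counts in all 6 libraries and the list summed to 5.19 to 14.6 CPM over all of them. The monocyte marker Ly6c2 was at 0 and that list of 5 summed to 1.46 to 3.92 CPM. The 6 dendritic cell markers summed to 268 to 325 CPM, most of it Itgax, which microglia also express. Itgax was at 318, 266 and 267 CPM in untreated wild type, Cop1 KO and LPS. Of the 5 tested markers of that list, 2 rose with LPS, 1 fell and 2 were not called (median −0.21). Those that rose were Xcr1 and Ccr7, and the rise of Ccr7 was fixed by the filter, which it passed only through LPS. Xcr1 was at 0.192, 0.623 and 21.5 CPM in untreated wild type, Cop1 KO and LPS, and Ccr7 at 0, 0 and 7.77 CPM. Their part in the LPS results was not tested. The 6 lymphocyte markers summed to at most 0.873 CPM. In such bulk samples a change in the number of microglia and a change in RNA per cell cannot be told apart. For this reason each member was also scaled to the summed counts of 8 pan-myeloid genes, which made up 0.62% to 0.624% of counts in untreated wild type, 0.72% to 0.723% in Cop1 KO and 0.437% to 0.44% with LPS. These genes changed too: all 8 rose in Cop1 KO (median 0.45), and with LPS 4 rose and 4 fell (median 0.14).

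On the authors' length-scaled unit (nRPKM), which allows levels of different genes to be compared, 2 receptors dominated the untreated cells. Clec4d, whose product pairs with Mincle, was at 195 and 190 nRPKM in untreated wild type, 532 and 550 in Cop1 KO and 345 and 350 with LPS. In rank this put Clec4d at place 100, 46 and 155 among the 15585 tested genes. The 3 groups did not overlap, and Cop1 KO was the highest. Clec7a, the beta-glucan receptor gene, was at 171 and 172 nRPKM in untreated wild type, 167 and 173 in Cop1 KO and 73.9 and 80.5 with LPS. Only the LPS libraries stood apart from the others for this gene on this scale.

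Clec4e, which encodes the receptor for mycobacterial cord factor, had the lowest level of the 8 in untreated cells, at 0.757 and 1.18 nRPKM (71 and 118 counts). It stood at 2.88 and 3.19 nRPKM in Cop1 KO (218 and 245 counts) and at 222 and 236 nRPKM with LPS (13224 and 12987 counts). The gene thus went from the last place among the members to the second. Clec4n, a receptor gene for fungal mannans, was at 14.2 and 14.6 nRPKM in untreated wild type, 32.3 and 34.5 in Cop1 KO and 5.81 and 5.41 with LPS. Its 3 groups were apart from one another, with Cop1 KO above and LPS below untreated wild type. Clec5a was at 8.09 and 8.06 nRPKM in untreated wild type, 9.82 and 9.86 in Cop1 KO and 29.3 and 30.7 with LPS.

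The Clec4a genes encode the dendritic cell immunoreceptor family. Clec4a1 was at 5.77 and 5.49 nRPKM in untreated wild type, 13.1 and 13.8 in Cop1 KO and 29.2 and 33.5 with LPS, so that each group stood above the one before. Clec4a3 was at 10.8 and 11.5, 14.5 and 13.6, and 5.76 and 5.48 nRPKM in the same order. Clec4a2 was at 3.54 and 3.57, 3.33 and 3.28, and 3.57 and 3.02 nRPKM, and its LPS libraries spanned the other groups. In untreated wild type the order was Clec4d, Clec7a, Clec4n, Clec4a3, Clec5a, Clec4a1, Clec4a2 and Clec4e, and no neighbours in it overlapped. In Cop1 KO, Clec4a3 (14.0 ± 0.679, SD, n = 2) and Clec4a1 (13.4 ± 0.499) overlapped as neighbours. With LPS the order was Clec4d, Clec4e, Clec7a, Clec4a1, Clec5a, Clec4a3, Clec4n and Clec4a2, and there Clec4a1 (31.3 ± 3.01) overlapped Clec5a (30.0 ± 1.01), and Clec4a3 (5.62 ± 0.201) overlapped Clec4n (5.61 ± 0.286).

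**Figure D1:**
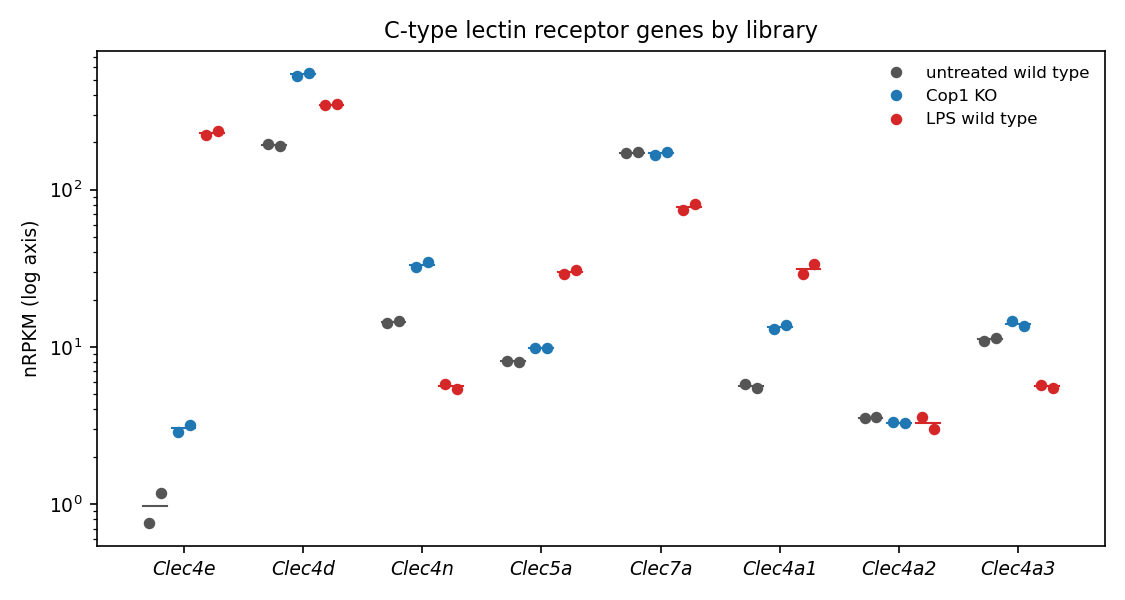
Level of the 8 receptor genes in nRPKM (log axis) in each library, with points for the 2 libraries of a group and a bar at their mean. Clec4e rises from about 1 nRPKM in untreated wild type to 222 and 236 with LPS, and Clec4n is highest in Cop1 KO and lowest with LPS.

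The 250 bases upstream of the start site are shown for 4 members that rose with LPS and 2 that fell, because genes of the same family and cluster went opposite ways. RefSeq (GRCm38.p6) gave a start site for 7 of the 8 members. Capitals mark matches, on either strand, to TTGCNNAA (C/EBP), to GGGA and CC with 4 arbitrary bases between them (NF-kB) and to TGANTCA (AP-1). They also mark GAGGAA, the core of ETS and PU.1 sites, a pair of GAAA with 2 arbitrary bases between them (ISRE, the interferon response element) and the TATA box TATAAA. The 4 members that rose with LPS are Clec4e (chr6:123289872-123290121, minus strand), Clec4d (chr6:123261857-123262106, plus strand), Clec5a (chr6:40585806-40586055, minus strand) and Clec4a1 (chr6:122921598-122921847, plus strand):
Clec4e: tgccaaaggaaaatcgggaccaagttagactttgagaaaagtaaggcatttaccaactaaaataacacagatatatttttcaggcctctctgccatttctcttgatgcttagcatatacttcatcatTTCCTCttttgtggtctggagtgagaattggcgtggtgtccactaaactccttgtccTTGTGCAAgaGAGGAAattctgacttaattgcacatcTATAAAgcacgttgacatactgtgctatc
Clec4d: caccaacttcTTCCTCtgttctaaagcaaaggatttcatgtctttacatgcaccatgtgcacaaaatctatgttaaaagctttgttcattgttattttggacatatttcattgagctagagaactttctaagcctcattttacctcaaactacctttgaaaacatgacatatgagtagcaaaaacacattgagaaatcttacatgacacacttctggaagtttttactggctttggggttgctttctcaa
Clec5a: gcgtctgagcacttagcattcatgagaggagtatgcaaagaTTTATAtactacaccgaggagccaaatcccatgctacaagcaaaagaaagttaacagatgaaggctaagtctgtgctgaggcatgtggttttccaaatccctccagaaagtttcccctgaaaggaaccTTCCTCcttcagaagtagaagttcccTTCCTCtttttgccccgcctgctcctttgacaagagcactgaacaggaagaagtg
Clec4a1: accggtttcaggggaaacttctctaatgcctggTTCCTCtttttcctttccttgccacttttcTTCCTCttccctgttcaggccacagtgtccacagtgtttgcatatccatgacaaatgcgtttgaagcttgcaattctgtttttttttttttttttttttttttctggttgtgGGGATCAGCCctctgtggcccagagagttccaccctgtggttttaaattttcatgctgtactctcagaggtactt
Of the 4 members lower with LPS, the windows of Clec7a (chr6:129472786-129473035, minus strand) and Clec4a3 (chr6:122952265-122952514, plus strand) follow, with Clec7a at the start site at the gene's outer end and Clec4a3 at the first start site listed. Clec4n has no entry, and Clec4a2, whose LPS call did not hold under 7 of the 13 alternatives, is not shown:
Clec7a: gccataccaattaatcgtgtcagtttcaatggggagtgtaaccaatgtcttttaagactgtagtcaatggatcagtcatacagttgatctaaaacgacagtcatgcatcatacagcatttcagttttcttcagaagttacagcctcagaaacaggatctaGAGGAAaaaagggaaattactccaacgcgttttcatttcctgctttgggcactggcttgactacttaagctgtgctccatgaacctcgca
Clec4a3: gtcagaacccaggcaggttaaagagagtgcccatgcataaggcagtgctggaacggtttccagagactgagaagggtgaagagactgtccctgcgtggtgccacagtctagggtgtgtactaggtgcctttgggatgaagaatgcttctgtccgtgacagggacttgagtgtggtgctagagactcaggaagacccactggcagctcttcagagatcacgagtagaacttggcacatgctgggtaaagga

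A match to the C/EBP letters was found upstream of 1 of the 7 members, Clec4e, where it lies at −66 to −59 from the start. In the same window a PU.1 core lies at −56 to −51 and a TATA box at −29 to −24. Of the 27025 gene promoters of that length, 9.55% hold the C/EBP letters and 13% hold the TATA box, which lay in 3 of the 7 member windows (Clec4e, Clec5a at −209 to −204 and Clec4a2 at −161 to −156). The NF-kB letters were found upstream of 1 member, Clec4a1, against 17.3% of all promoters. With 1 start site taken per gene, the first listed, the PU.1 core lay on either strand upstream of 5 of 7 members, Clec4e, Clec4d, Clec5a, Clec7a and Clec4a1, against 23.1% of all promoters. Clec4a3 has a second listed start site, and the window before that one holds a PU.1 core at −50 to −45. The AP-1 and ISRE letters lay in none of the 7 windows, against 6.87% and 3.04% of all promoters. These matches describe the letters of a short window and are not tested sites.

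The first comparison set Cop1 KO against untreated wild type. In Cop1 KO, 4 receptor genes were 2.12-fold to 2.84-fold higher: Clec4e, its partner Clec4d, Clec4n and Clec4a1. On the TMM scale the other members differed by less than 1.2-fold in either direction. At an adjusted p below 0.05 in edgeR's quasi-likelihood test all 8 members passed, 6 higher and 2 lower, while 58.4% of all tested genes passed in this comparison, 28.1% higher and 30.3% lower. The members' median log2 fold change was 0.64, beside −0.01 over all genes. The split was 6 and 0 with median-of-ratios factors, 4 and 2 with library size only, and 4 and 4 with scaling to pan-myeloid genes, which move the median of all genes to 0.08, −0.20 and −0.41. Over all genes these scalings gave 5490 higher and 3913 lower, 2321 and 7195, and 1121 and 10366, beside 4374 and 4727.

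Clec4d went from 380 ± 5.79 to 975 ± 19.9 CPM (SD, n = 2 libraries), a 2.57-fold difference (log2 fold change 1.36, SE 0.03, adjusted p = 6.8e-40). Clec4e went from 3.61 ± 1.12 to 10.3 ± 0.707 CPM (1.50, SE 0.13, adjusted p = 1.5e-15). The untreated libraries differed from each other in this gene, at 2.82 and 4.40 CPM, and the log2 difference was 1.23 without the first and 1.87 without the second. Clec4n rose 2.12-fold from 26.4 to 56.1 CPM (1.09, SE 0.07, adjusted p = 7.1e-21), and Clec4a1 rose 2.17-fold from 13.0 to 28.2 CPM (1.12, SE 0.08, adjusted p = 3e-17). Relative to the pan-myeloid genes, which themselves had a median of 0.45 in this comparison, these differences were 0.95 for Clec4d, 1.10 for Clec4e, 0.68 for Clec4n and 0.71 for Clec4a1, and each still passed. Markers of other cell types in the culture also differed, in both directions. Astrocyte markers summed to 585 to 592 CPM in untreated wild type and 33.1 to 37.4 in Cop1 KO, and fibroblast markers to 48.6 to 51.9 and 115 to 119. The part of other cell types in these differences was not tested beyond this scaling.

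The size of the difference in the remaining members depended on the scale, as did the direction for Clec5a and Clec4a3. Clec5a was at 45.6 and 50.7 CPM (0.15, SE 0.05, adjusted p = 0.011), but at −0.038 with library size only and −0.25 with pan-myeloid scaling. Clec4a3 was at 21.9 and 25.2 CPM (0.20, SE 0.08, adjusted p = 0.024), but at −0.21 with pan-myeloid scaling. Clec7a was at 577.5 and 522 CPM (−0.15, SE 0.03, adjusted p = 0.0001), and at −0.34 with library size only and −0.55 with pan-myeloid scaling (adjusted p = 1.8e-13 and 1.6e-18). With median-of-ratios factors it was at −0.059 and did not pass (adjusted p = 0.12). Clec4a2 was at 15.1 and 12.8 CPM (−0.24, SE 0.10, adjusted p = 0.033), and at −0.43 with library size only and −0.64 with pan-myeloid scaling (adjusted p = 0.00014 and 1.6e-07). With median-of-ratios factors it was at −0.15 and did not pass (adjusted p = 0.18). Both genes were lower under all 13 alternatives. Without the first untreated library Clec5a, Clec4a2 and Clec4a3 did not pass (adjusted p = 0.051, 0.099 and 0.18). Without the second, Clec5a and Clec4a2 did not pass (0.064 and 0.13), nor did Clec4a2 without either Cop1 KO library (0.075 and 0.12) or Clec4a3 without the first of them (0.21).

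The second comparison set LPS-treated against untreated wild type. LPS split the set: Clec4e, Clec4a1, Clec5a and Clec4d rose, while Clec4n, Clec7a and Clec4a3 fell. Clec4e had by far the largest change of the 8, from 3.61 ± 1.12 to 761 ± 31.7 CPM, a 209-fold rise (log2 fold change 7.71, SE 0.11, adjusted p = 9.5e-61). It ranked 108 among the increases of 15585 tested genes. All 8 members passed, 4 higher and 4 lower, while 73.7% of all tested genes passed, 30.2% higher and 43.4% lower. The members' median was 0.21 beside −0.18 over all genes, and −0.35 beside −0.74 with library size only. Over all genes 4714 were higher and 6767 lower, or 5579 and 5667 with median-of-ratios factors and 2679 and 10766 with library size only.

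Clec4a1 rose 4.96-fold from 13.0 ± 0.464 to 64.4 ± 6.09 CPM (2.31, SE 0.08, adjusted p = 8e-33). Clec5a rose 3.31-fold from 45.6 ± 0.113 to 151 ± 4.85 CPM (1.73, SE 0.05, adjusted p = 3.1e-36). Clec4d rose 1.61-fold from 380 to 613 CPM (0.69, SE 0.03, adjusted p = 3.7e-27), and by 0.13 with library size only (adjusted p = 0.00015). In the other direction, Clec4n fell 2.86-fold from 26.4 ± 0.49 to 9.21 ± 0.484 CPM (−1.52, SE 0.10, adjusted p = 6.2e-21). Clec7a fell 2.49-fold from 577.5 ± 2.45 to 232 ± 13.6 CPM (−1.32, SE 0.03, adjusted p = 1.2e-37), and Clec4a3 fell 2.22-fold from 21.9 to 9.85 CPM (−1.15, SE 0.10, adjusted p = 1.7e-15). Clec4a2, the gene of the inhibitory receptor, was at 15.1 ± 0.0949 and 12.5 ± 1.5 CPM (−0.27, SE 0.10, adjusted p = 0.016), or −0.83 with library size only (adjusted p = 2e-10). Its call was lost with median-of-ratios factors (−0.13, adjusted p = 0.26) and without the second LPS library (−0.16, adjusted p = 0.24) or either untreated library (0.053 and 0.069). The other 7 kept their direction and their call under all 4 scalings.

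**Figure D2:**
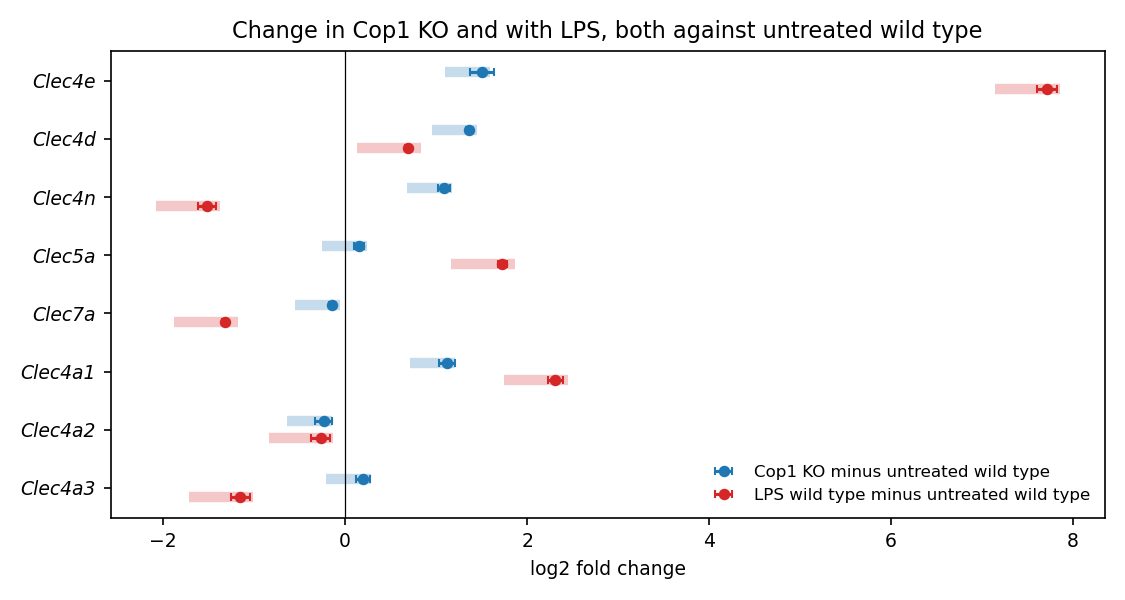
Log2 fold change of each receptor gene in Cop1 KO and with LPS, both against the same untreated wild-type libraries, with SE bars; pale bands span the values under 4 scalings (TMM, median-of-ratios, library size, pan-myeloid genes). Clec4e, Clec4d and Clec4a1 lie right of 0 in both, Clec4n lies right of 0 in Cop1 KO (1.09) and left of it with LPS (−1.52), and the bands of Clec5a and Clec4a3 in Cop1 KO cross 0.

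Both comparisons share the untreated libraries, so Cop1 KO was also set against LPS directly. Of the 8 members 7 passed, 4 higher and 3 lower in Cop1 KO, while 79.6% of all tested genes passed, 39.9% higher and 39.6% lower. The members' median was 0.35 beside 0.03 over all genes. With library size only the members split into 5 and 3 and all genes into 8468 and 4653; with pan-myeloid scaling they split into 4 and 4 and into 4208 and 8043. Clec4n was 6.08-fold higher in Cop1 KO than with LPS (log2 fold change 2.60, SE 0.10, adjusted p = 4.2e-33). Clec4a3 was 2.55-fold higher (1.35, SE 0.10), Clec7a 2.25-fold higher (1.17, SE 0.03) and Clec4d 1.59-fold higher (0.67, SE 0.03). Clec4e was 73.8-fold lower in Cop1 KO than with LPS (−6.20, SE 0.08, adjusted p = 6.9e-59), Clec5a 2.98-fold lower (−1.57, SE 0.05) and Clec4a1 2.28-fold lower (−1.19, SE 0.07). Clec4a2 differed by 0.03 with an interval of −0.18 to 0.24 (1.96 SE each way, adjusted p = 0.78). Its value was 0.40 with library size only and −0.31 with pan-myeloid scaling, and both of those passed. The other 7 kept their direction and their call under every alternative run.

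Ratios between members within a library do not depend on how libraries are scaled. Clec4d and Clec4e encode receptors that form a complex with each other. Clec4d exceeded Clec4e in nRPKM by a factor of 257 and 161 in the untreated libraries, 185 and 172 in Cop1 KO and 1.55 and 1.48 with LPS. The ratio in Cop1 KO lay within the range of the untreated libraries, and the LPS libraries stood far below both. For the fungal receptors, Clec7a exceeded Clec4n by a factor of 12.1 and 11.8 untreated, 5.17 and 5.01 in Cop1 KO and 12.7 and 14.9 with LPS. Here Cop1 KO stood apart from both other groups. The ratio of Clec4a1 to Clec4a3, neighbouring genes, was 0.533 and 0.479 untreated, 0.899 and 1.02 in Cop1 KO and 5.07 and 6.11 with LPS, with no overlap between groups.

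The summed nRPKM of the 8 genes was 409 and 407 in untreated wild type, 774 and 800.5 in Cop1 KO and 715 and 745 with LPS. On this scale the sums in Cop1 KO and with LPS were thus close, but the genes behind them differed. Unlike a ratio within a library, the closeness of these sums depends on how libraries are scaled. Clec4d, their largest part, was higher in Cop1 KO than with LPS by 1.04 on the log2 scale with library size only. With pan-myeloid scaling that difference was 0.32. Clec4d made up 68.6% and 68.7% of the sum in Cop1 KO, and 46.8% to 48.3% in the other libraries. Clec7a fell from 41.9% and 42.3% of the untreated sum to 21.6% in both Cop1 KO libraries and to 10.3% and 10.8% with LPS. Clec4e made up 0.185% to 0.398% of the sum without LPS and 31.1% and 31.7% with it.

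**Figure D3:**
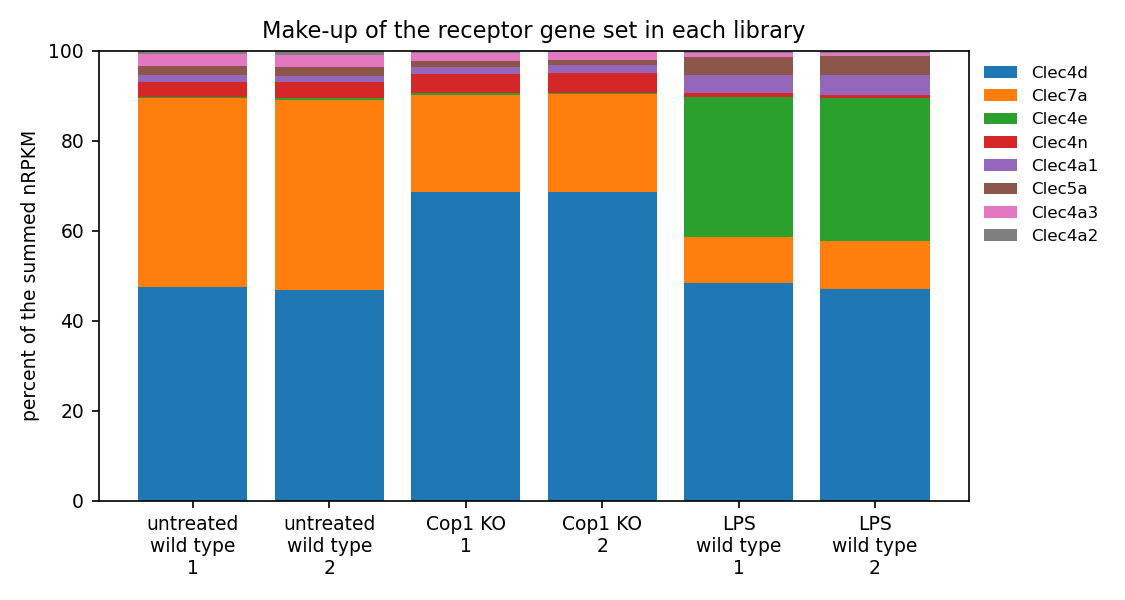
Share of each gene in the summed nRPKM of the 8 receptor genes (y axis, percent) in each of the 6 libraries (bars). Clec4d and Clec7a fill most of each bar without LPS, and with LPS Clec4e takes 31.1% and 31.7%.

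All 8 members lie on chromosome 6. The 6 Clec4 members lie within 368 kb (122921848 to 123289871 on GRCm38), Clec5a lies at 40574898 to 40585805 and Clec7a at 129461591 to 129472785. In the annotation no exon of a member overlaps an exon of another gene. Exact runs of 50 bases, the read length per the labels' protocols, were shared with transcripts of another gene for 6.83% of those of Clec4a2, mostly with Clec4a4 and Clec4b1, for 0.686% of those of Clec4n, and for none of the other 6 members. Only reads that align to a single place were counted, so reads from shared runs would be lost and the level of Clec4a2 may be understated.

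Neighbours in the Clec4 cluster did not move as a block. Within 250 kb on either side of the Clec4 members the files list 20 genes, of which 11 were tested and 10 had a mean of at least 1 CPM. From one end to the other, the log2 fold changes with LPS were 2.31 for Clec4a1, −1.15 for Clec4a3, −0.27 for Clec4a2, −1.52 for Clec4n, 0.69 for Clec4d and 7.71 for Clec4e. Clec4n, Clec4d and Clec4e follow each other directly on the chromosome. Outside the lectin genes, C3ar1, the receptor gene for the complement fragment C3a, rose in Cop1 KO from 1160 to 1830 CPM (0.66, SE 0.03, adjusted p = 3.2e-27). With LPS it was at 1710 CPM (0.56, SE 0.03, adjusted p = 9.8e-25), or −0.0015 with library size only (adjusted p = 0.96). Slc2a3, a glucose transporter gene, fell by 1.77 (SE 0.17) in Cop1 KO and by 0.35 (SE 0.14, adjusted p = 0.021) with LPS. Neuron markers summed to 57.7 to 58.1 CPM in untreated wild type, 3.42 to 4.41 in Cop1 KO and 51.7 to 53.2 with LPS. Astrocyte markers summed to 585 to 592, 33.1 to 37.4 and 665 to 679 CPM. The part of either cell type in the Slc2a3 values was not tested. Foxj2 was at 0.39 (SE 0.06) in Cop1 KO, or −0.02 with pan-myeloid scaling, and fell by 0.47 (SE 0.06) with LPS. Necap1 was at 0.06 (SE 0.05, adjusted p = 0.35) in Cop1 KO and 0.36 (SE 0.05) with LPS, or −0.20 with library size only. The related Clec4b1, Clec4a4 and Clec4b2 lie inside the cluster and were singled out after their values were seen. Clec4b1, at 61 counts over all libraries, was at −0.30 (SE 0.46, adjusted p = 0.6) and −2.08 (SE 0.77, adjusted p = 0.0039). Clec4a4 had 31 counts in all and was not tested, and Clec4b2 had 0.

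**Figure D4:**
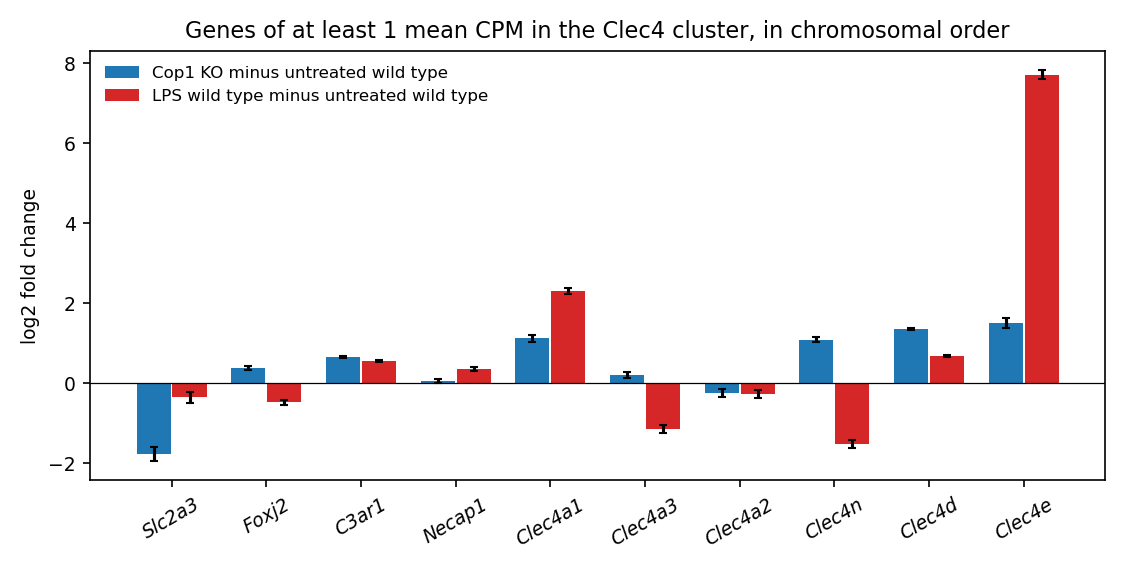
Log2 fold change (y axis, SE bars) of the 10 genes of at least 1 mean CPM in and around the Clec4 cluster, in chromosomal order, for Cop1 KO and LPS against untreated wild type. Adjacent genes differ in direction: with LPS Clec4n is at −1.52 and its neighbours Clec4d and Clec4e at 0.69 and 7.71; the Cop1 KO bars of Clec4a3, Foxj2 and Necap1 and the LPS bars of C3ar1 and Necap1 change sign under another scaling.

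The genes that carry the receptors' signal were described from a list of 24 adaptors, kinases and scaffolds. Of these, 16 rose in Cop1 KO, 4 fell and 4 missed the threshold, beside 28.1% higher and 30.3% lower of all tested genes. The list's median was 0.40 beside −0.01 over all genes. The split was 14 and 7 with library size only. Relative to pan-myeloid genes 7 rose and 10 fell, and the median was −0.010, so the direction of this list rests on the scaling. Card9, the scaffold gene downstream of SYK, rose from 52.3 to 92.0 CPM (0.82, SE 0.05, adjusted p = 7.7e-20) and by 0.41 with pan-myeloid scaling. The adaptor gene Fcer1g rose from 429 to 682 CPM (0.67, SE 0.03) and by 0.26 with pan-myeloid scaling. Tyrobp, the adaptor gene for MDL-1, stood at 0.45 (SE 0.03) and at 0.04 with pan-myeloid scaling. Lyn, a kinase gene, and Vav1, which encodes an exchange factor, rose by 0.64 (SE 0.03) and 0.54 (SE 0.03). Syk itself was at 277 and 306 CPM, a difference of 0.14 (SE 0.03, adjusted p = 0.0001) that was −0.05 with library size only and −0.26 with pan-myeloid scaling. Malt1 and Src fell by 0.48 (SE 0.06) and 0.87 (SE 0.07).

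With LPS, 12 of the 24 rose and 10 fell, while 2 missed the threshold, beside 30.2% higher and 43.4% lower of all tested genes. The median of the 24 was 0.28. With library size only, 9 rose and 12 fell, and the median was −0.28. Both adaptor genes changed, in opposite directions: Fcer1g rose from 429 to 1213 CPM (1.50, SE 0.03) and Tyrobp fell from 1081 to 749.7 CPM (−0.53, SE 0.03). Of the CARD9 complex, Malt1, its protease gene, rose from 57.6 to 534 CPM (3.21, SE 0.04), Card9 fell from 52.3 to 26.4 CPM (−0.99, SE 0.07). Bcl10, added after its values were seen to complete the complex, rose by 0.93 (SE 0.05). The kinase genes Src, Lyn and Syk rose by 3.72 (SE 0.05), 2.51 (SE 0.03) and 1.67 (SE 0.03), and Itpr1, a calcium channel gene, rose by 2.63 (SE 0.07). Hcst, the second adaptor gene of MDL-1, was at 0.31 (SE 0.18, adjusted p = 0.11), or −0.25 with library size only. Between the groups directly, Card9 was higher in Cop1 KO than with LPS by 1.80 (SE 0.06) and Tyrobp by 0.98 (SE 0.03), while Malt1 was lower by 3.69 (SE 0.05) and Fcer1g by 0.83 (SE 0.03).

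**Figure D5:**
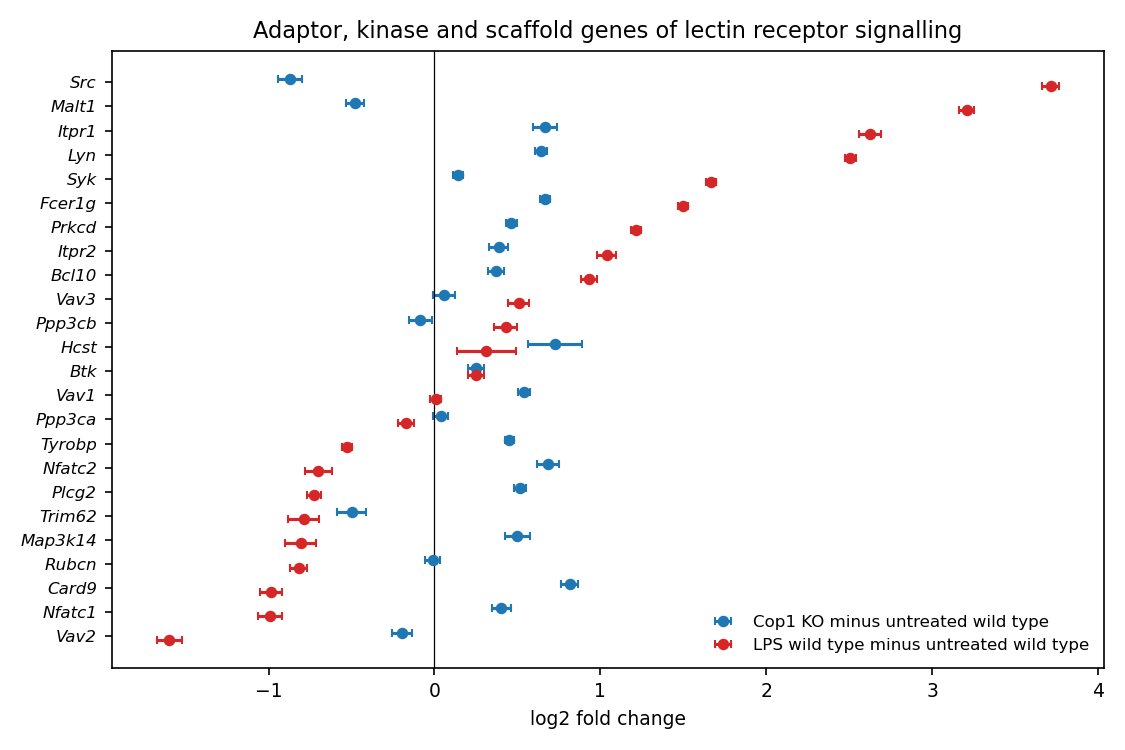
Log2 fold change (x axis, SE bars) of 24 adaptor, kinase and scaffold genes in Cop1 KO and with LPS, both against untreated wild type, ordered by the LPS value. With LPS the genes run from −1.60 to 3.72 (Src), and the Cop1 KO values lie between −0.87 and 0.82; those of Syk, Bcl10, Btk, Itpr2, Nfatc1, Ppp3ca, Ppp3cb, Rubcn and Vav3 change sign under another scaling, as do the LPS values of Btk, Hcst, Ppp3cb, Vav1 and Vav3.

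Phosphatases and E3 ligases that restrain these receptors were split. Of 7 genes, 2 rose and 3 fell in Cop1 KO (median 0.03, or −0.17 with library size only), or 1 and 4 with pan-myeloid scaling. With LPS 2 rose and 4 fell (median −0.57), or 1 and 5 with library size only. All tested genes split into 28.1% higher and 30.3% lower in Cop1 KO, and 30.2% and 43.4% with LPS. Ptpn6, the SHP-1 phosphatase gene that inhibitory lectins recruit, rose from 187 to 300.1 CPM in Cop1 KO (0.68, SE 0.03) and to 513 CPM with LPS (1.46, SE 0.03). Inpp5d, the SHIP-1 gene, was at 302 CPM untreated, 415 in Cop1 KO (0.46, SE 0.03) and 65.4 with LPS (−2.21, SE 0.04).

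Beyond the 8 members, 34 other C-type lectin receptor genes were listed, and 18 had counts enough to be tested. In Cop1 KO 10 of the 18 rose and none fell (median 0.49), beside 28.1% higher and 30.3% lower of all tested genes. With pan-myeloid scaling 6 rose and 2 fell, beside 1121 and 10366 of the 15585 tested genes. With LPS 12 rose and 4 fell (median 1.26), beside 30.2% higher and 43.4% lower of all tested genes. Some passed the filter only through their LPS counts, such as Olr1 and Klrk1, at no more than 4 counts in any library without LPS. The rise of such genes was fixed by the filter, which raises both this count and this median. Cd72, an inhibitory lectin of B cells and myeloid cells, rose from 292 to 702 CPM in Cop1 KO (1.26, SE 0.03) and to 519.6 with LPS (0.83, SE 0.03). Clec2d and the inhibitory receptor gene Clec12a rose in both, by 1.57 (SE 0.07) and 0.66 (SE 0.03) in Cop1 KO and by 2.49 (SE 0.07) and 1.17 (SE 0.03) with LPS. Cd69, an activation marker gene, was at 1.01, 4.26 and 2150 CPM in untreated wild type, Cop1 KO and LPS. Colec12, a scavenger lectin gene, was at 692, 890 and 302 CPM, a difference of 0.36 (SE 0.03) in Cop1 KO that was −0.04 with pan-myeloid scaling, and a fall of 1.20 (SE 0.03) with LPS.

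Other receptors that use the same adaptors were set beside the lectins. Of 20 listed, 18 were tested. In Cop1 KO 13 rose and 1 fell (median 0.66), or 10 and 3 with pan-myeloid scaling. With LPS 7 rose and 10 fell (median −0.72). The shares over all tested genes were 28.1% higher and 30.3% lower in Cop1 KO, and 30.2% and 43.4% with LPS. Tarm1 and Cd300e, at no more than 8 counts in any library without LPS, passed the filter only through LPS. Fcgr1 and Fcgr4, activating Fc receptor genes that pair with Fcer1g, rose by 1.36 (SE 0.03) and 1.13 (SE 0.04) in Cop1 KO and by 3.29 (SE 0.03) and 3.31 (SE 0.04) with LPS. Trem2, which pairs with Tyrobp, rose by 0.49 (SE 0.03) in Cop1 KO and fell by 0.83 (SE 0.03) with LPS. Of 15 inhibitory receptor genes 14 were tested, and 10 rose and 1 fell in Cop1 KO (median 0.37). The split was 7 and 2 with library size only and 4 and 3 with pan-myeloid scaling, where the median was −0.036 beside −0.41 over all genes. With LPS 8 rose and 6 fell (median 1.08). Pirb and Fcgr2b, inhibitory receptor genes for MHC class I and immune complexes, rose by 1.16 (SE 0.04) and 1.23 (SE 0.03) in Cop1 KO and by 1.21 (SE 0.04) and 0.94 (SE 0.03) with LPS.

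Genes that SYK and CARD9 signalling can induce, and that LPS induces through other receptors too, differed widely between the states. Of 17, 7 rose and 3 fell in Cop1 KO (median 0.19), or 6 and 5 with pan-myeloid scaling. With LPS 14 rose and 2 fell (median 7.89). Beside these counts, 28.1% of all tested genes were higher and 30.3% lower in Cop1 KO, and 30.2% and 43.4% with LPS. Some of the 17 passed the filter only through LPS, such as Il23a, at no more than 3 counts in any library without it. The rise of such genes was fixed by the filter, which raises both the LPS count and its median. Tnf was at 18.5, 36.8 and 3844 CPM in untreated wild type, Cop1 KO and LPS, and Nlrp3, an inflammasome sensor gene, at 30.9, 62.0 and 1295 CPM. Il12b was at 0.653, 0.532 and 2638 CPM, with −0.29 (SE 0.33, adjusted p = 0.54) in Cop1 KO. Egr2 fell by 0.66 (SE 0.06) in Cop1 KO and by 2.53 (SE 0.09) with LPS. Of 11 transcription factor genes tied to induction of these lectins 10 were tested. In Cop1 KO 9 of them rose and none fell (median 0.60), or 8 and 1 with library size only and 8 and 2 with pan-myeloid scaling. With LPS 9 rose and 1 fell (median 1.97). Irf8 and Spi1, the PU.1 gene and one of the pan-myeloid scaling genes, rose by 0.79 (SE 0.03) and 0.64 (SE 0.03) in Cop1 KO and by 2.61 (SE 0.03) and 1.56 (SE 0.03) with LPS. Nfkb2 rose by 0.77 (SE 0.04) and 4.68 (SE 0.04). Cebpa fell from 394 to 4.80 CPM with LPS (−6.35, SE 0.11) and was at 450 CPM in Cop1 KO (0.19, SE 0.03), or −0.21 with pan-myeloid scaling. Cebpb and Cebpd were chosen after their values were seen, for the C/EBP letters upstream of Clec4e. They rose by 0.51 (SE 0.04) and 0.96 (SE 0.09) in Cop1 KO, or by 0.107 and 0.555 with pan-myeloid scaling. With LPS they rose by 1.78 (SE 0.04) and 2.16 (SE 0.08).

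For each member the genes with the most similar profile were taken by the distance between mean-centred log2 CPM over the 6 libraries, among 10385 named genes of at least 5 mean CPM. Clec5a lay closest to Tmem128, Kdm4a and Syk, at distances of 0.06, 0.06 and 0.09 on the log2 scale, so the kinase gene of the pathway was among the 3 nearest to this receptor. Clec4d lay closest to Xdh, Neurl3 and Cd72 (0.19, 0.24 and 0.25), the last another lectin gene. Clec4e had more distant neighbours, Gbp3, Tarm1 and Serping1 (0.49, 0.53 and 0.55). Gbp3, an interferon-induced GTPase gene, was at 1.71 in Cop1 KO and 7.69 with LPS on the log2 fold scale, beside 1.50 and 7.71 for Clec4e. Serping1 was at 2.28 and 9.01, and Tarm1, at 0 counts in the untreated libraries, was at 5.32 and 11.8, so these genes differed from Clec4e in fold change. Clec4n lay closest to Lilra5, Cdiptos and Nbeal2 (0.22, 0.28 and 0.28), with Lilra5 at 1.26 and −1.38. For Clec4a1 the nearest were Fbxw17, Glrx and Niban1 (0.21, 0.25 and 0.27). Clec7a had Adam10, a membrane protease gene, at a distance of 0.09, and then Tmx4 and Ankrd26 (0.11 each). Clec4a3 lay closest to Slc66a2, Kbtbd7 and Atraid (0.06, 0.07 and 0.08), and Clec4a2 to Pa2g4, Zfp523 and Zadh2 (0.09, 0.10 and 0.10). Over only 3 states many genes share a profile, and these distances describe likeness over these libraries.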

How the data were processed

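The 6 libraries hold polyadenylated RNA, made with a TruSeq kit and read as single ends of 50 bases, per the labels' protocols. Reads were aligned with GSNAP to GRCm38, per the submitters' processing notes; the version and annotation are not given in the sources used. Per the file headers, the authors counted reads that align to one place only, by gene model, and these count columns are raw. A second column holds the authors' nRPKM, per the file headers an RPKM corrected by a size factor.

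Entrez identifiers were named from RefSeq GRCm38.p6 (31049 of 36528; the rest held 1.07% to 1.31% of counts). Counts were fitted in edgeR 4.0.16 (R 4.3.3): filterByExpr (15585 genes), TMM factors, quasi-likelihood test on all 6 libraries (3 groups, leaving 3 residual degrees of freedom), Benjamini-Hochberg over all genes, called below 0.05. SE comes from the fit's weights and quasi-likelihood dispersion. The fit was tested on simulated data. Scaling alternatives, DESeq2 1.42.0, limma 3.58.1 on log2(nRPKM + 1), only the 2 groups compared, no filter, and leaving out each library were run. Lists are described by counts and medians, with no set test; 1 gene of the signalling list is not reported here. The members and lists were chosen with earlier results of these data known. Named list genes are up to 6 called genes by smallest p in each comparison and up to 2 others per list, with neighbours and nearest profiles as stated; each may be described under all 3 comparisons. Python 3.11.15 joined the tables.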

Additional observations from a re-analysis of the deposited data

How the results depend on the processing

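Of 312 member values under 13 alternatives, 282 kept direction and side of the threshold, 22 lost the call, 1 gained it and 7 changed sign. Clec4e, Clec4d, Clec4n and Clec4a1 were higher in Cop1 KO, and the 7 members other than Clec4a2 kept their LPS calls, under all 13. In Cop1 KO the sign changes were Clec5a with library size only (−0.038) and with pan-myeloid scaling (−0.25), and Clec4a3 with pan-myeloid scaling (−0.21). Between Cop1 KO and LPS, Clec4a2 was at −0.021 with median-of-ratios factors, −0.019 with DESeq2 and −0.31 with pan-myeloid scaling, and leaving out 1 library gave −0.075 (without the second LPS library) to 0.17. The count of members lower in Cop1 KO, 2, became 0 with median-of-ratios factors, DESeq2 or limma on nRPKM and 4 with pan-myeloid scaling. Leaving out 1 library gave 1 to 2 lower and 5 to 8 called in all, with 5 without the first untreated library. The cause of these shifts was not tested. Where 1 library of a group was left out, the other was assumed to vary like the other groups. With 2 libraries a group, an exact test over libraries could not reach the threshold, so all calls rest on the spread shared across groups and genes. No paired analysis was possible because the labels give no replicate numbers.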
